A study of Mus musculus with 2 samples.

Results

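Cyp11b1 and Cyp11b2, the genes of the enzymes that complete corticosteroid synthesis, were followed through total RNA-seq of the mouse adrenal gland. Both were found by gene symbol, 2 of the 55536 GENCODE genes measured, and linked to the gene tables by their identifiers (ENSMUSG00000075604.5 for Cyp11b1 and ENSMUSG00000022589.7 for Cyp11b2). The tissue came from female mice of the F1 hybrid strain B6CASTF1/J, a cross of C57BL/6J with CAST/EiJ, at 14 days of age. No treatment or mutation is named. There is 1 group of 2 libraries, each from 300 ng of RNA depleted of ribosomal RNA and carrying ERCC spike-ins, which are synthetic RNAs of known amount. The tissue label of replicate 2 names a numbered female and that of replicate 1 a pool of females, yet both libraries share a donor identifier and a pooled library description. Whether the replicates are separate animals was not settled, so part of the spread between these libraries could be technical. Expected counts, which share reads among the transcripts they fit, summed to 33844950 in replicate 2 and 37586172 in replicate 1.

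Both enzymes sit in the inner mitochondrial membrane and take electrons from NADPH through ferredoxin reductase and ferredoxin. Cyp11b1, the steroid hydroxylase of the zona fasciculata, turns deoxycorticosterone into corticosterone, the main glucocorticoid of mice, and its gene responds to ACTH. Cyp11b2, aldosterone synthase, is made in the thin outer zona glomerulosa, where angiotensin II and potassium control it.

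The genes lie one behind the other on the minus strand of chromosome 15 in mm10, Cyp11b1 from 74834125 to 74841643 and Cyp11b2 from 74851010 to 74856318, with 9366 bases between them. Each has 1 transcript in the annotation, of 9 exons. The Cyp11b1 transcript is 3165 bases long and the Cyp11b2 transcript 1625 bases. The coding parts are 1503 and 1506 bases, stop codons left out, so the difference in length lies almost all behind the coding sequence, where Cyp11b1 has 1631 bases and Cyp11b2 has 32, stop codons included. Exons 2, 3, 4, 6, 7 and 8 have the same length in both genes.

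Aligned exon by exon, 1309 of 1503 coding bases were identical (87.1%). The likeness was uneven. In exon 1, 243 of 245 coding bases were identical (99.2%), and in exon 6, 161 of 167 (96.4%). Exon 5 was the least alike, with 101 of 152 aligned bases (66.4%) and 3 bases in Cyp11b2 that have no partner. The sequences below are read from the GENCODE M21 transcripts, 5′ to 3′ on the minus strand. Variants of the CAST/EiJ parent were not examined. The first set shows the longest stretch in which a read of this reference sequence matches both genes equally well. It is 244 coding bases shared without a mismatch, running from exon 1 into exon 2. Capitals mark identical bases, the Cyp11b1 copy spans chr15:74840927-74841602 with the intron left out, and the Cyp11b2 line begins with the last 15 identical bases (chr15:74855547-74855576).
Cyp11b1: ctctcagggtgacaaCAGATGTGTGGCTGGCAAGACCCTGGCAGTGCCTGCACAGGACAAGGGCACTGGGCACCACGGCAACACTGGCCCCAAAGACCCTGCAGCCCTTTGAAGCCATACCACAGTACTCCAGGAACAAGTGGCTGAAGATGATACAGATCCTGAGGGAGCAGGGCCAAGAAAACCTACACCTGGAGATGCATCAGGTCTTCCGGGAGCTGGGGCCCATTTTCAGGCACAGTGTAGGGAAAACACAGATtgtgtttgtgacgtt
Cyp11b2: AGGGAAAACACAGATcgtatctgtgatgtt

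The second set shows where reads do tell the genes apart. It is the 60-base window of the coding alignment with the most differing bases, 24 of 60, in exon 3 (chr15:74839246-74839305 for Cyp11b1 and chr15:74853815-74853874 for Cyp11b2). Capitals mark the differing bases.
Cyp11b1: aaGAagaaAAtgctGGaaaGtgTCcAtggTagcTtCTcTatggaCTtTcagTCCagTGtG
Cyp11b2: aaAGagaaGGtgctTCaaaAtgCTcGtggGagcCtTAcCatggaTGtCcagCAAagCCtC

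The third set is exon 5 of both genes (chr15:74838494-74838645 and chr15:74853039-74853193), the exon that differs in coding length. Capitals mark the 3 bases of Cyp11b2 that stand against the gap, placed for the most matches.
Cyp11b1: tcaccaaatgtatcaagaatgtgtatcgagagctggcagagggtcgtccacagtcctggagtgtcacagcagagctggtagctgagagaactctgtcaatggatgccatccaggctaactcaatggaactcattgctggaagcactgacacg
Cyp11b2: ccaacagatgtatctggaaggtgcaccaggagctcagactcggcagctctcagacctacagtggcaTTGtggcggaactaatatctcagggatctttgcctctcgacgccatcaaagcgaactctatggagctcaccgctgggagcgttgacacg

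**Figure D1:**
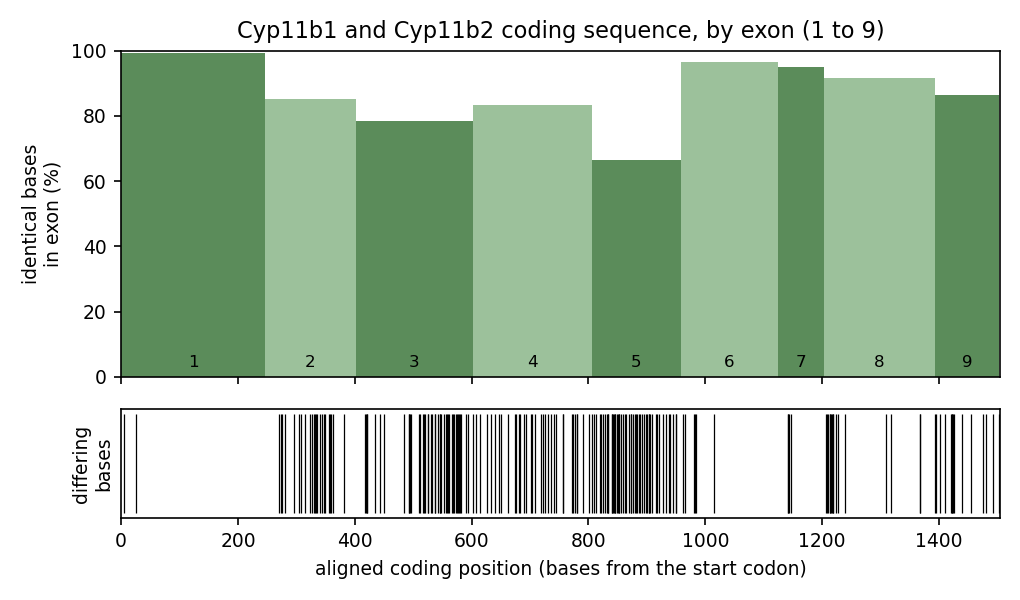
Identity of the coding sequences of Cyp11b1 and Cyp11b2. The upper panel gives the percent of identical bases in each of the 9 exons against position from the start codon, and the lower panel marks each of the 194 differing bases with a line; exon 1 reaches 99.2% and exon 5 66.4%, and differing bases are crowded in exons 2 to 5.

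The shared stretches number 7 at a minimum of 31 bases, 614 bases in all, and all lie within coding sequence. Of windows of 100 bases, 171 of 1526 in Cyp11b2 (11.2%) and the same 171 of 3066 in Cyp11b1 (5.58%) occur in both transcripts. For windows of 31 bases, these shares are 25.3% of Cyp11b2 and 12.9% of Cyp11b1. No 31-base window of Cyp11b2 occurs in a transcript of any other gene on either strand, so its only look-alike in the annotation is Cyp11b1. Cyp11b1 does share 310 such windows with 3490 other genes, in either orientation, but all lie between transcript positions 2419 and 2876, behind the coding sequence, which ends at position 1534. At 100 bases, Cyp11b1 shares windows with Gml2 alone, a gene on the opposite strand whose end overlaps that of Cyp11b1 by 747 bases and which had 0 counts in both libraries. Whether the counting used strand is not stated, and the strand of the reads in that overlap was not tested. The authors' posterior SD of the Gml2 count was 0 in both libraries, so the counts show no reads shared with Cyp11b1.

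The counts carry this relation. Neither gene's expected count was whole, 35697.15 for Cyp11b1 and 961.85 for Cyp11b2 in replicate 2, and 93560.73 and 2135.27 in replicate 1. Their sums were whole to 2 decimals, at 36659 in replicate 2 and 95696 in replicate 1. The authors' posterior SD of the count was likewise equal for both genes, 17.84 counts in replicate 2 and 23.84 in replicate 1. The fractions of one gene are thus the complement of those of the other. That SD amounts to 1.85% and 1.12% of the Cyp11b2 count in replicates 2 and 1, and to 0.050% and 0.0255% of the Cyp11b1 count. By comparison, the posterior SD was 0 (under 0.005 counts) in each library for 80.1% of the 16153 measured genes, meaning those that average 20 or more counts.

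Cyp11b1 was among the most abundant protein-coding transcripts of the gland. It stood at 353 TPM (a relative level of transcripts per length) in replicate 2 and 882 TPM in replicate 1, a mean of 618 ± 374 TPM (SD, n = 2). Of 22028 protein-coding genes it ranked 81st in replicate 2 and 27th in replicate 1, and 129th and 33rd by the second transcript table. It took 0.105% of all counts in replicate 2 (95% Wilson interval 0.104 to 0.107) and 0.249% in replicate 1 (0.247 to 0.251). Cyp11b2 was present far lower, at 19.1 TPM in replicate 2 and 40.45 in replicate 1, a mean of 29.8 ± 15.1 TPM (SD, n = 2). It ranked 2691st and 1329th in those libraries, and 1974th and 957th by the second transcript table. Its share of all counts was 0.00284% (0.00267 to 0.00303) in replicate 2 and 0.00568% (0.00544 to 0.00593) in replicate 1. Replicate 1 held the higher value of both genes, and the 2 genes did not overlap in level. These intervals cover counting error only, and the reads carry no molecular identifiers. With 1 annotated transcript each, Cyp11b1-201 and Cyp11b2-201 took 100% of their gene's TPM and counts in both transcript tables and both libraries. These shares are fixed by the annotation, and the transcript ends it uses do enter the values per length.

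The second transcript table, made from the read files rather than from the alignment per the deposited notes, gave Cyp11b2 relatively more counts than the gene table did. It raised Cyp11b2 more than Cyp11b1. Cyp11b2 had 1409 estimated counts in replicate 2 and 3438 in replicate 1, which is 1.46 and 1.61 times its counts in the gene table. Cyp11b1 had 35800 and 97963 estimated counts, 1.00 and 1.05 times those of the gene table. The median of 5556 protein-coding genes of at least 10 TPM was 1.08 in replicate 2 and 1.13 in replicate 1. Only 0.648% and 0.738% of those genes had a ratio at or above that of Cyp11b2, whereas 81.2% and 83.4% were at or above that of Cyp11b1. On the TPM scale Cyp11b2 reached 38.7 and 81.5 TPM in replicates 2 and 1 of the second table, and Cyp11b1 451 and 1075 TPM. The TPM of the median gene was itself 1.47 and 1.43 times as high in the second table. Cyp11b2, at 2.03 and 2.02 times, was thus 1.38 and 1.41 times the median gene, with 8.80% and 8.39% of genes at or above it. Cyp11b1, at 1.28 and 1.22 times, was 0.870 and 0.855 of the median gene. The sum of both genes' counts was close between tables in replicate 2 (37208 in the second table and 36659 in the gene table) and 1.06 times as high in the second table in replicate 1 (101401 and 95696). The share of that sum given to Cyp11b2 was 3.79% in the second table and 2.62% in the gene table in replicate 2, and 3.39% and 2.23% in replicate 1.

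**Figure D2:**
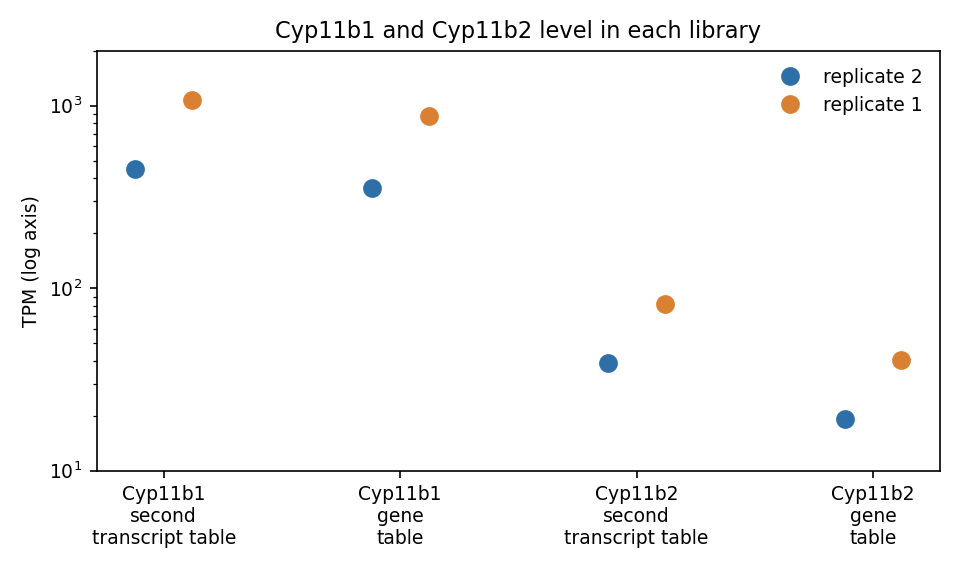
Level of Cyp11b1 and Cyp11b2 in TPM (log axis) in replicate 2 (blue) and replicate 1 (orange), from the second transcript table and the gene table. Replicate 2 lies below replicate 1 in each pair, and Cyp11b2 moves from 19.1 and 40.45 TPM in the gene table to 38.7 and 81.5 TPM in the second table.

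Within a library Cyp11b1 exceeded Cyp11b2 in every table, by an amount that depends on the table and the unit. In TPM of the gene table the ratio was 18.5 in replicate 2 and 21.8 in replicate 1 (log2 4.33 ± 0.17, SD, n = 2). The first transcript table gave the same values, and FPKM (fragments per length and library size) gave 18.5 and 21.8 as well. Both follow by construction, from 1 transcript per gene and from a factor per library that cancels in a ratio. In TPM of the second table the ratio was 11.7 in replicate 2 and 13.2 in replicate 1 (log2 3.63 ± 0.13). As counts, not per length, it was 37.1 and 43.8 in the gene table and 25.4 and 28.5 in the second table. The step from counts to TPM in the gene table is the ratio of the effective lengths, 3066 and 1526 bases, which is 2.01. The 3′ end used for each gene therefore matters. RefSeq ends Cyp11b1 767 bases earlier than GENCODE and Cyp11b2 392 bases later, and starts Cyp11b2 87 bases later. With lengths moved to those ends, the inner exons taken as in GENCODE and the counts kept, an alternative chosen after seeing the data, the ratio per length was 29.6 in replicate 2 and 34.9 in replicate 1.

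The ratio was lower in replicate 2 under each of these settings, which rest on the counts of either the gene table or the second table. Settings with the same counts differ by a factor of lengths that is equal, or nearly so, in both libraries. Their shared direction therefore follows by construction. In the gene table's counts the replicate 2 ratio was 0.847 times that of replicate 1 (95% interval 0.784 to 0.916, exact conditional, counting error only). In the second table it was 0.892 times (0.837 to 0.951). Both intervals leave out 1, but each side is 1 library, and variation between animals is not in them. They compare these libraries, not conditions.

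**Figure D3:**
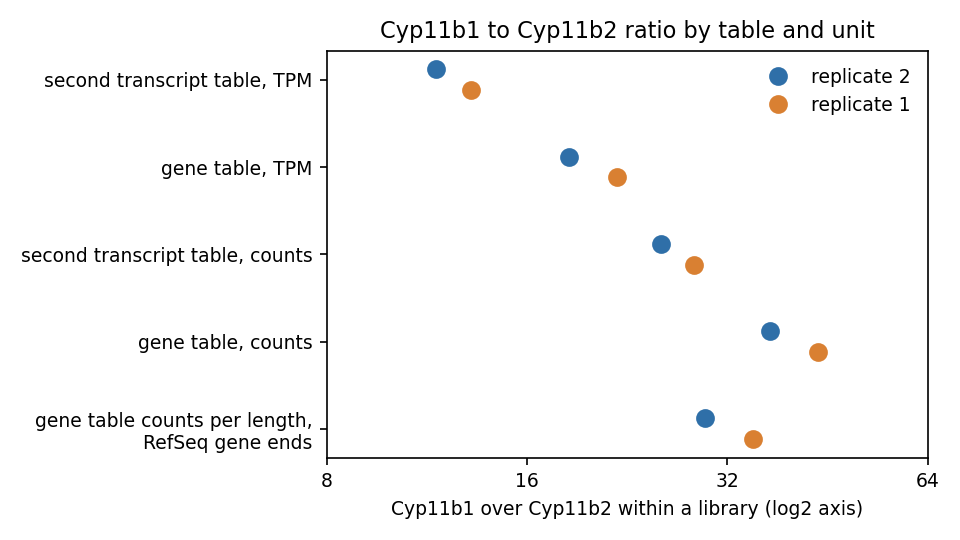
Ratio of Cyp11b1 to Cyp11b2 within each library (log2 axis) in replicate 2 (blue) and replicate 1 (orange), for 5 combinations of table, unit and transcript end. Values run from 11.7 in the second table's TPM to 43.8 in the gene table's counts. Replicate 2 lies below replicate 1 in each, and combinations from the same table share their counts.

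Both genes were lower in replicate 2 after scaling for library composition. Cyp11b1 was at log2 -0.90, a fold of 0.538 (95% interval 0.531 to 0.544, counting error only), and Cyp11b2 at log2 -0.66, a fold of 0.635 (0.588 to 0.685). Of 16153 measured genes, 8.57% were lower in replicate 2 by at least 1.5-fold and 14.5% higher. Under spike-in scaling, which moves the median gene to log2 -0.28, those shares were 19.99% and 9.69%, and under total-count scaling, with the median gene at -0.34, 24.9% and 8.96%. In TPM, with the median gene at -0.42, they were 33.6% and 8.61%. Both of the 2 genes lay past 1.5-fold downward, although the interval of Cyp11b2 reaches inside that line. At or below Cyp11b1 lay 3.44% of the measured genes, and at or below Cyp11b2 6.83%. In bulk tissue, fewer cells of a type and less RNA per cell cannot be told apart.

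Markers of other tissues moved between the same libraries. By comparison, 8.57% of all measured genes were lower past 1.5-fold in replicate 2 and 14.5% higher. Of 10 liver markers, 10 were higher in replicate 2, with a summed level of 19696 TPM in replicate 2 and 352 in replicate 1, and no marker was at 0. Skeletal muscle markers were higher in 10 of 10 (653 and 36.4 TPM summed), or 9 of 10 under total-count or TPM scaling, and T cell markers lower in 10 of 10 (2.30 and 47.75 TPM summed), again with none at 0. Fat markers were past 1.5-fold higher in 5 of 8 (1639 and 1431 TPM summed) but in 0 of 8 under spike-in, total-count or TPM scaling. In TPM, 3 of the 8 (Lep, Plin1 and Plin4) were below their replicate 1 level. Chromaffin markers of the medulla were lower in 7 of 8, with 731 and 1591 TPM summed and a median log2 of -0.71. Cortex markers were lower in 7 of 8 (2385 and 5496 TPM summed, median log2 -0.81), and Nr0b1 was within 1.5-fold at 0.10. All 8 also stand in the steroid pathway, electron supply or ACTH lists below, so the counts of those lists are not separate from this one. The part of these other tissues in the lower level of Cyp11b1 and Cyp11b2 was not tested. Of the kidney list, Umod, Slc12a1 and Nphs1 had 0 counts in both libraries of the gene table, and all 7 together came to 0.170 and 0.430 TPM. In the gonad list Inha, which the adrenal cortex also expresses, made up 13.1 of 14.5 TPM in replicate 2 and 30.7 of 33.7 TPM in replicate 1.

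**Figure D4:**
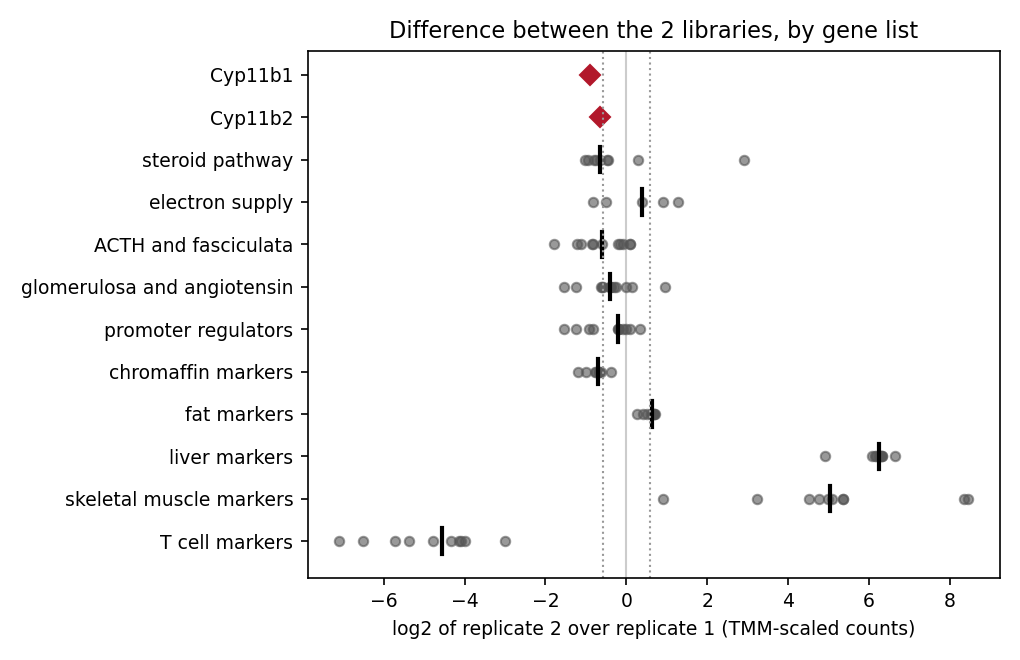
Log2 of replicate 2 over replicate 1 from scaled counts for Cyp11b1 and Cyp11b2 (diamonds) and for measured genes of 10 lists (points), with the list median as a bar and dotted lines at 1.5-fold. Cyp11b1 lies at -0.90 and Cyp11b2 at -0.66, beside medians of -0.65 for the steroid pathway list and -0.71 for chromaffin markers, while liver markers lie near 6.26 and T cell markers near -4.56.

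In TPM of the gene table Cyp11b1 itself differed 2.50-fold between the libraries. Its ratio to each gene below that acts before it differed less, though only a little less for Tspo. In the second table the ratio to Tspo was 2.32 in replicate 2 and 5.70 in replicate 1. That differed slightly more than Cyp11b1 itself, at 451 and 1075 TPM. Star, which brings cholesterol to the inner mitochondrial membrane, had 838 TPM in replicate 2 and 2049 in replicate 1, so that Cyp11b1 was 0.422 and 0.430 of it. Against Cyp11a1, which cleaves the cholesterol side chain, Cyp11b1 was at 0.683 and 0.734, and against Cyp21a1, which makes its substrate deoxycorticosterone, at 0.553 and 0.655. Against Hsd3b1, which makes progesterone, it was at 0.277 and 0.307. The last 2 genes have near-identical copies, so that their reads may be split by the counting. Against Tspo, an outer mitochondrial membrane protein that binds cholesterol, the ratio was 4.59 in replicate 2 and 10.4 in replicate 1, and against Hsd3b6, a glomerulosa relative of Hsd3b1, 36.3 and 51.1. Cyp17a1, which mice use little in the adrenal, had 1.08 and 2.33 TPM, and Cyp11b1 was 327 and 379 times as high. Scarb1, the receptor that takes up cholesterol esters from HDL, was lower than Cyp11b1, with a ratio of 1.56 in replicate 2 and 1.43 in replicate 1 in TPM of the gene table. In the second table the ratio was 1.17 in replicate 2 and 0.933 in replicate 1, so the order of these genes turns in replicate 1 only.

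Of 9 measured genes in the steroid pathway list, 5 were lower past 1.5-fold, 1 higher and 3 within it, with a median log2 of -0.65. Over all measured genes the median was 0.0019, and 8.57% were lower past that line. The 5 lower genes of the list were Scarb1 (log2 -1.03), Star (-0.93), Cyp11a1 (-0.80), Hsd3b1 (-0.75) and Cyp21a1 (-0.65). Under spike-in, total-count or TPM scaling 7 of the 9 were lower, and these scalings put 19.99%, 24.9% and 33.6% of all measured genes past that line. The 1 higher was Hsd11b1 at 2.90, which regenerates corticosterone from its inactive ketone and is abundant in liver. Liver markers were higher by a median log2 of 6.26, and whether the 2 differences are linked was not tested.

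The electron carriers of the 2 enzymes were both abundant. Fdx1, the ferredoxin that hands electrons to Cyp11b1 and Cyp11b2, had 222 TPM in replicate 2 and 506 in replicate 1, and Cyp11b1 was 1.59 and 1.74 times as high. Fdxr, the reductase that charges it, stood at 109 and 207 TPM. Fdx1 was lower in replicate 2 by log2 -0.82, and Fdxr, at -0.50, was within 1.5-fold. Carriers outside this mitochondrial chain went the other way, with Por at log2 0.91 and Cyb5a at 1.29. Both serve P450 enzymes of the endoplasmic reticulum. In TPM, Por was within 1.5-fold, at 68.25 in replicate 2 and 57.66 in replicate 1. Fdx1l, the second mitochondrial ferredoxin, was within 1.5-fold at 0.38.

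Genes of ACTH action and of the zona fasciculata were lower past 1.5-fold in 6 of 11, higher in 0 and within it in 5 (median log2 -0.59). Of all measured genes, 8.57% were lower past that line. Mc2r, the ACTH receptor, had 34.0 TPM in replicate 2 and 99.1 in replicate 1 (log2 -1.12), and its accessory protein Mrap had 76.5 and 157 TPM (-0.59). Nr5a1, the nuclear receptor that drives steroid hydroxylase genes, stood at 55.1 and 132 TPM (-0.83), and Cyp11b1 exceeded it by 6.41 and 6.68 times. Akr1b7, a fasciculata aldose reductase that ACTH induces, was lowest of the list at log2 -1.80, with Abcb1b, a transporter, at -1.21 and the phosphodiesterase Pde8b at -0.85. The kinase subunits Prkaca (0.08) and Prkar1a (-0.16) were within 1.5-fold.

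Genes of the zona glomerulosa and of angiotensin action were lower in 4 of 13 measured, higher in 1 and within 1.5-fold in 8 (median log2 -0.39). Of all measured genes, 8.57% were lower past that line. With spike-in scaling 8 of the 13 were lower and with total counts 10, where 19.99% and 24.9% of all measured genes were. Dab2, an adaptor protein that marks glomerulosa cells, had 78.7 TPM in replicate 2 and 159 in replicate 1, and Cyp11b2 was 0.243 and 0.254 of it. Agtr1a, an angiotensin II receptor, had 39.5 and 67.8 TPM, and Cyp11b2 was 0.484 and 0.596 of it. Agtr1b, the other mouse form of that receptor, had 2.29 and 4.22 TPM, and Cyp11b2 was 8.35 and 9.59 times as high. The 4 lower genes were Dab2, Kcnk9, Nr4a1 and Nr4a2, and the 1 higher was Smoc2 (0.96), a secreted matrix protein, which was within 1.5-fold in TPM. The potassium channel Kcnk9, which helps set the resting potential of glomerulosa cells, stood at 7.41 and 15.4 TPM, and Cyp11b2 was 2.58 and 2.62 times as high. Vsnl1, a calcium sensor found in glomerulosa cells, stood at 5.90 and 10.4 TPM. The calcium channel Cacna1h was at 9.84 and 14.7 TPM (-0.30), and the potassium channel Kcnk3 at 142 and 249 TPM (-0.25). Also within 1.5-fold were Cacna1d (-0.58), Shh (-0.01) and Wnt4 (0.13). Kcnj5, a potassium channel gene, had 22 counts in replicate 2 and 8 in replicate 1, too few to be measured here.

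Of 11 regulators known from studies of steroid hydroxylase promoters in several species, 4 were lower past 1.5-fold, 0 higher and 7 within it (median log2 -0.20). Of all measured genes, 8.57% were lower past that line. In this list 5 genes (Nr5a1, Nr0b1, Creb1, Nr4a1 and Nr4a2) also stand in the lists above. The 4 lower regulators were Nr5a1 and the orphan receptors Nr4a1 (39.4 TPM in replicate 2 and 130 in replicate 1, log2 -1.24), Nr4a2 (1.29 and 6.14 TPM, -1.53) and Nr4a3 (6.73 and 19.2 TPM, -0.91). Nr2f2, an orphan receptor, stood at 22.3 and 34.0 TPM (-0.01) and Creb1, the cyclic AMP response factor, at 8.06 and 12.6 TPM (-0.09). Of the receptors for the products of the 2 enzymes, Nr3c1, which binds corticosterone, stood at 20.7 and 15.3 TPM (0.75), and Nr3c2, which binds aldosterone, at 1.75 and 2.63 TPM (-0.02). Nr3c1 was thus past 1.5-fold higher in scaled counts and within it under spike-in, total-count or TPM scaling.

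Around the pair, 14 other genes are annotated within 100000 bases. Of these, 5 were measured and 9 had at most 4 counts in either library, 4 of them none. Ly6d, a membrane-anchored protein of the Ly6 family, had 84.6 TPM in replicate 2 and 173 in replicate 1 (log2 -0.61). Ly6e stood at 96.8 and 137 TPM (-0.10), Lynx1, a modulator of nicotinic receptors, at 19.8 and 30.4 TPM (-0.29), Ly6k at 5.03 and 11.9 TPM (-0.74) and 2010109I03Rik at 0.170 and 0.820 TPM (-1.92). All 5 lay below 0 on the log2 scale, 3 of them past 1.5-fold. Over all measured genes the median was 0.0019, and 8.57% were lower past that line. Gml and Gml2, which lie next to Cyp11b1 on its far side from Cyp11b2, had 0 counts in both libraries, and a count of 0 allows up to 3 counts.

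With 2 libraries, the pattern of a gene reduces to 1 difference. Among 451 other protein-coding genes of at least 100 TPM on average, the 5 nearest to Cyp11b1 in log2 difference were Star (-0.93), the chromaffin granule protein Scg2 (-0.96), Fdx1 (-0.82), the globin Hbb-bt (-0.98) and Th (-0.99), the first enzyme of catecholamine synthesis. Only Star lay within 0.05 of it. The 5 nearest to Cyp11b2 were Scd2 (-0.66) and Acly (-0.65), enzymes of lipid synthesis, Cyp21a1 (-0.65), the granule protein Chga (-0.67) and Pnmt (-0.68), which makes adrenaline, and 9 genes lay within 0.05 of it. Over all measured genes, 155 lay within 0.05 of Cyp11b1 and 334 within 0.05 of Cyp11b2, counts that include Cyp11b1 or Cyp11b2 itself.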

How the data were processed

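Each library has 3 deposited tables. In the gene table and in a first table of transcripts the authors give expected counts, TPM, FPKM and a posterior SD of the count, per the file headers, with the percent of gene TPM for transcripts. A second table of transcripts holds, per the file headers, the authors' estimated counts with TPM. The notes deposited with each sample name mm10 and GENCODE M21, and trace the gene and first tables to reads aligned to transcripts and the second to read files. Neither tools nor versions nor strand settings are stated in these sources.

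Expected counts were rounded and TMM-scaled in edgeR 4.0.16 (R 4.3.3) after its expression filter. A replicate difference is log2(replicate 2 / replicate 1) of scaled counts, prior count 0.5. A gene was measured if its counts averaged 20 or more and it was not mitochondrial, and genes were counted past 1.5-fold. Intervals of folds are Clopper-Pearson. With 1 group no test between groups exists, and none was run. Alternatives were DESeq2 1.42.0 size factors, spike-ins, total counts, no filter, the other tables and units, a pseudocount, and leaving out each replicate. The pair, the lists and the rule for named genes (the pair, genes within 100000 bases, list members, and for each of the pair the 5 nearest protein-coding genes of at least 100 TPM in replicate difference) were chosen with earlier results of these data known. Promoter motifs were not analysed here. Sequences are from GENCODE M21 transcripts, and RefSeq gene ends from GRCm38.p6. The scaling was tested on simulated counts with as many genes raised as lowered. That setting leaves out the difference in composition seen between these libraries, so the scaling was not tested for it.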

Additional observations from a re-analysis of the deposited data

How the results depend on the processing

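No paired analysis was possible because there is 1 group. Of 41 alternative values, 0 changed sign, but levels and transcript shares cannot be negative, so their sign was fixed in advance. Moves beyond the spread between replicates (for the replicate differences, the counting interval) were seen in 15. The others include transcript shares, fixed at 100% by a single transcript, and values without 1 replicate, which with 2 libraries cannot pass that spread. They also include the first transcript table and the ratio in FPKM, which repeat the gene table by construction. None of these says anything of stability. The log2 ratio of Cyp11b1 to Cyp11b2, 4.33 in the gene table's TPM, was 3.63 in the second transcript table, with the leading transcripts alone too, 5.33 in expected counts, 4.75 in estimated counts and 5.01 with RefSeq gene ends, and 4.21 to 4.45 when either replicate was left out. The replicate difference of Cyp11b1, log2 -0.90, was -1.17 with spike-in scaling, -1.24 with total counts, -1.32 in TPM and -0.87 in the second table. That of Cyp11b2, -0.66, was -0.93, -0.999 and -1.08 with spike-ins, total counts and TPM and -0.71 in the second table. Mean Cyp11b1 was 1524 TPM and mean Cyp11b2 73.8 TPM over protein-coding genes only, and Cyp11b2 averaged 60.1 TPM in the second table. Leaving out either replicate gave 353 to 882 TPM for Cyp11b1 and 19.1 to 40.45 TPM for Cyp11b2, and left each transcript share at 100%. Past 1.5-fold downward, the electron supply list held 2 genes in place of 1 under spike-in, total-count and TPM scaling, and in TPM, where 33.6% of all measured genes were lower, the glomerulosa list held 9 in place of 4, the promoter regulators 8 in place of 4, the ACTH list 8 in place of 6 and the corticosteroid receptors 1 (Nr3c2) in place of 0. Higher past 1.5-fold, the electron supply list held 1 gene in place of 2 under total counts and TPM, and the corticosteroid receptors 0 in place of 1 under each of these scalings, and the glomerulosa list 0 in place of 1 in TPM. The causes of these shifts were not tested, except that the step from counts to TPM is the ratio of lengths. The counting interval of Cyp11b2 spans 1.46 to 1.70 as a fold of replicate 1 over replicate 2.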
